A study of Homo sapiens with 6 samples.

Results

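The end joining and PARP genes described here are PRKDC, XRCC4, XRCC5, XRCC6, LIG4, NHEJ1, TP53BP1, PARP1 and PARP2. They were taken by symbol from the deposited count table, where each of the 9 had 1 row among 27942 genes, and all 9 passed the filter on low counts that left 13727 genes for testing. The table holds RNA-seq counts of HCT116, an established human colorectal carcinoma line with wild-type p53. Cultures given oxaliplatin at 0.5 µM over 24 h (OXA) were set against non-treated control cultures (NT), with 3 libraries in each group, so the comparison asks how these transcripts stood 24 h after a platinum drug that damages DNA was added. Nothing in the labels says whether the libraries of a group came from separate cultures, so p-values measure the spread between these libraries.

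Non-homologous end joining seals DNA double-strand breaks without a template. The Ku heterodimer (XRCC6, or Ku70, and XRCC5, or Ku80) binds the broken ends and recruits the kinase DNA-PKcs (PRKDC). The ligase complex of LIG4, XRCC4 and NHEJ1 (XLF) then joins them, while TP53BP1 (53BP1) binds the chromatin around the break and protects the ends from resection. PARP1 and PARP2 sense breaks, mostly single-strand ones, and build ADP-ribose chains that recruit repair factors. Oxaliplatin forms platinum adducts and crosslinks on DNA, and breaks arise mainly when these are processed or met by replication forks.

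Library totals lay between 32979521 and 40967880 counts. Of 9 markers of colorectal epithelium, EPCAM, KRT8, KRT18, KRT19, CDH1 and CDX2 had at least 434 raw counts in every library and VIL1 at least 39, whereas CDX1 had 0 in every library and CEACAM5 at most 2. Among 8 markers of blood, stroma, endothelium, liver and muscle, PTPRC, CD3E, COL1A2, PECAM1 and ALB had at most 7 raw counts in any library, VWF at most 29, DES between 88 and 166, and COL1A1 between 107 and 273. Within NT, library 1 was low in KRT19, with 6287 raw counts against 15095 and 15939 in libraries 2 and 3. It was also low in KRT8, with 27026 against 46147 and 45981. KRT18 differed less, with 27104 against 32368 and 31873. The treatment was visible in the p53 targets CDKN1A, MDM2 and TP53I3, which rose in OXA at log2 fold changes of 2.93, 2.22 and 2.83 (edgeR adjusted p of at most 0.00109). The deviations from the group means correlated between NT and OXA libraries of the same number, so values from a fit blocked on that number (the replicate block) are given where they change a call. The labels do not say what the number stands for, and same-numbered libraries are called pairs here.

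None of the 9 genes differed between OXA and NT at an adjusted p under 0.05 by edgeR's quasi-likelihood test, which called 5.07% of all genes tested. DESeq2 and limma-voom also called 0 of the 9, beside 9.24% and 4.84% of all genes tested. At an unadjusted p under 0.05, 0 were higher and 1, PRKDC, was lower, against 10.7% and 11.1% of all genes. The log2 fold changes of OXA over NT ran from -0.28 (PARP2) to 0.28 (XRCC4) with a median of -0.043, beside 0.023 over all genes tested. The groups did not overlap in 1 of the 9 genes, against 28.9% of all genes tested. Every OXA library exceeded its same-numbered NT library in 2 of the 9 (XRCC4 and LIG4), against 33.8% of all genes, and was below it in 4 (PRKDC, XRCC5, NHEJ1 and PARP2), against 27.6%. With the replicate block, 3 of the 9 (33.3%) passed the threshold, with XRCC4 higher and PRKDC and XRCC5 lower, where the block called 23.0% of all genes. These 3 calls were lost without the pair numbered 2 or 3 and held without the pair numbered 1. Fits without a pair have 1 library fewer per group, so they judge the spread from fewer libraries. Without the libraries numbered 2, the block called 0 of the 9 higher and 0 lower, beside 11.8% of all genes. Without those numbered 3 it called 0 higher and 1 lower (PARP2), beside 22.3% of all genes. Without those numbered 1 it called 2 higher (XRCC4 and LIG4) and 2 lower (PRKDC and XRCC5), beside 41.5% of all genes. In RNA from whole cultures, fewer cells with a transcript and less transcript per cell cannot be told apart.

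**Figure D1:**
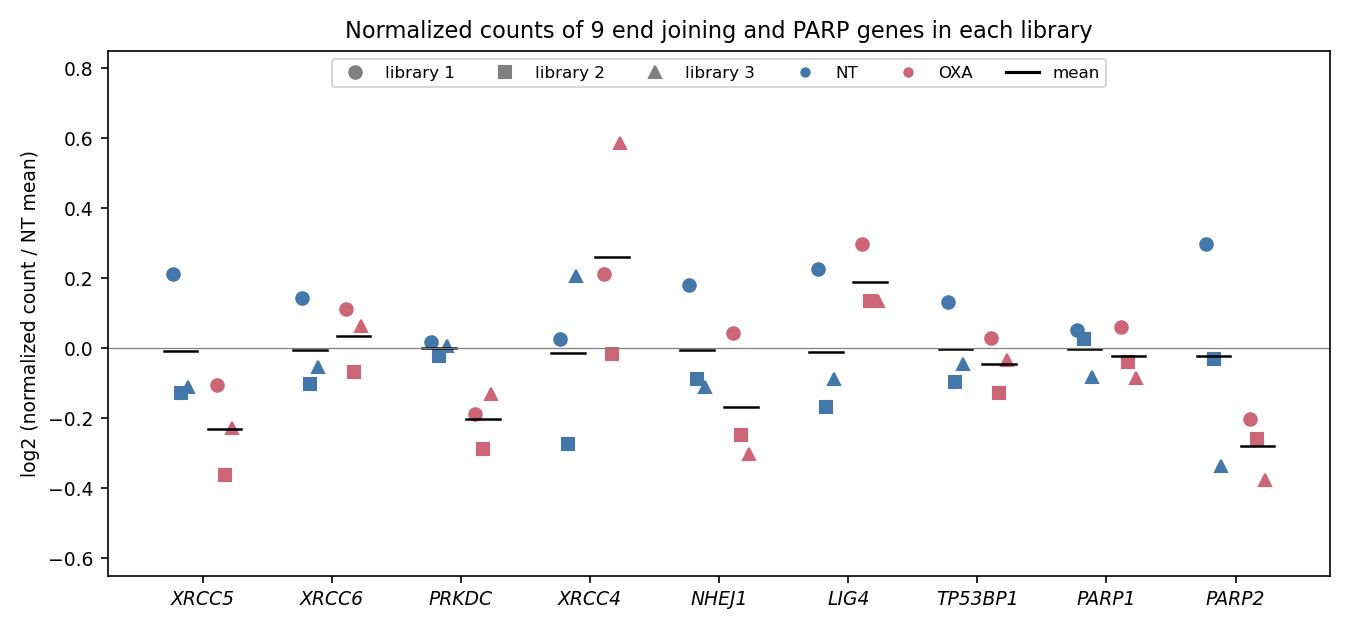
Normalized counts of the 9 genes in each library, as log2 of the count over the mean of the 3 NT libraries. Colors mark the groups, symbols the library number and bars the mean of the log2 values. Only PRKDC has all 3 OXA libraries outside the NT range, and NT library 1 is the highest NT library in each gene except XRCC4.

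The Ku genes were the most abundant of the 9 in counts, and of this pair XRCC5 passed the threshold with the replicate block and XRCC6 in neither fit. XRCC5 (ENSG00000079246, chromosome 2 of GRCh38 from 216107464 to 216206303, plus strand), which encodes Ku80, had 46569, 36801 and 37271 normalized counts in NT libraries 1 to 3 and 37381, 31287 and 34305 in OXA libraries 1 to 3. Normalized counts are raw counts scaled by 1 TMM factor per library. NT library 1 was far above the other libraries, and OXA library 1 lay just above the NT libraries 2 and 3, so the groups overlapped. The means were 40214 ± 5509 in NT and 34324 ± 3047 in OXA (mean ± SD, n = 3), with -0.23 as the log2 fold change (SE, its standard error, 0.12, 95% interval -0.51 to 0.056, edgeR adjusted p = 0.333). Without NT library 1 it was -0.11, and without NT library 2 it was -0.32. Each OXA library was below the NT library of the same number, by log2 differences of -0.32, -0.23 and -0.12, and the replicate block gave -0.22 (SE 0.056, edgeR adjusted p = 0.0388).

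XRCC6 (ENSG00000196419, chromosome 22 of GRCh38 from 41621163 to 41664048, plus strand), which encodes Ku70, the partner of Ku80, had 48861, 41180 and 42545 normalized counts in NT against 47738, 42194 and 46153 in OXA. Every OXA library lay within the range of the NT libraries. OXA over NT came to a log2 fold change of 0.038 (SE 0.10, 95% interval -0.20 to 0.27, edgeR adjusted p = 0.871), and its sign turned under 6 of the 16 alternatives set out in the closing section. The interval corresponds to a fold change between 0.873 and 1.21. The annotation lists 5 XRCC6 and 2 PARP1 pseudogenes, none of which has a row in the table, and how the counting treated reads shared with them is not given in the sources used here.

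As the Ku proteins act as a heterodimer, the log2 ratio of XRCC5 to XRCC6, per length of exon, was also taken in each library. It was -0.82, -0.91 and -0.94 in NT and -1.10, -1.18 and -1.18 in OXA. All 3 OXA ratios lay below the NT ratios, a gap between the groups (-0.89 ± 0.064 in NT and -1.16 ± 0.044 in OXA) that was wider than the spread inside either. In linear terms, XRCC5 stood at 0.539 of the XRCC6 level in NT and at 0.449 in OXA. These linear values depend on the exon lengths used, as do the other ratios per length. The log2 difference between the groups does not. The ratio of XRCC5 to XRCC6 was not tested, and how often ratios of other gene pairs lie apart in this way was not determined. From the normalized values of the authors, the difference between the groups was -0.25 in place of -0.26, and the groups did not overlap there either.

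PRKDC (ENSG00000253729, chromosome 8 of GRCh38 from 47773111 to 47960178, minus strand) encodes the catalytic subunit DNA-PKcs, which Ku places at the break. Its normalized counts were 34891, 33897 and 34583 in NT and 30275, 28247 and 31453 in OXA. The NT libraries were close together, and every OXA library lay below them. OXA differed from NT by -0.20 on the log2 scale (SE 0.082, 95% interval -0.39 to -0.0094, unadjusted p = 0.0419, edgeR adjusted p = 0.211), which corresponds to 0.870-fold. Over the 16 alternatives it lay between -0.27 and -0.13, and in the normalized values of the authors the groups overlapped. With the replicate block the value was also -0.20 (SE 0.049, edgeR adjusted p = 0.0367).

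The genes of the ligase complex had log2 fold changes of both signs. XRCC4 (ENSG00000152422, chromosome 5 of GRCh38 from 83077498 to 83353787, plus strand), the scaffold that holds the ligase, had 1640, 1333 and 1858 normalized counts in NT against 1864, 1593 and 2417 in OXA. Library 3 was the highest and library 2 the lowest of each group, and the groups overlapped. In log2 terms OXA stood 0.28 above NT (SE 0.18, 95% interval -0.14 to 0.70, edgeR adjusted p = 0.421). The value was 0.069 without OXA library 3 and 0.41 without OXA library 2. Within the pairs, OXA exceeded NT by 0.19, 0.26 and 0.38 on the log2 scale, and the replicate block gave 0.27 (SE 0.064, edgeR adjusted p = 0.0325).

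LIG4 (ENSG00000174405, chromosome 13 of GRCh38 from 108207439 to 108218368, minus strand), the ligase of end joining, had 641, 487 and 516 normalized counts in NT against 674, 602 and 601 in OXA. NT library 1 lay above OXA libraries 2 and 3, and the other NT libraries lay below all OXA libraries. The log2 fold change was 0.19 (SE 0.14, 95% interval -0.13 to 0.51, edgeR adjusted p = 0.483), with 0.20 and an adjusted p of 0.146 under the replicate block. It was 0.081 without NT library 2 and 0.32 without NT library 1. With per-library trends on GC and length taken out beside the block, the value was 0.29 (edgeR adjusted p = 0.00692). That fit called 44.2% of all genes tested.

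NHEJ1 (ENSG00000187736, chromosome 2 of GRCh38 from 219069355 to 219160869, minus strand) encodes XLF, a structural relative of XRCC4 that bridges the ends with it. It had 936, 777 and 766 normalized counts in NT against 852, 696 and 670 in OXA. OXA was lower in each pair, by -0.14, -0.16 and -0.19 on the log2 scale, yet OXA library 1 lay within the NT range. In the fit without the block it had -0.16 as log2 fold change (SE 0.14, 95% interval -0.49 to 0.16, edgeR adjusted p = 0.560). This was -0.062 without NT library 1 and -0.28 without OXA library 1. The block did not bring NHEJ1 past the threshold (edgeR adjusted p = 0.144). A share of 19.5% of its exon bases is also annotated to a protein-coding gene on the same strand (ENSG00000280537), which had between 9 and 16 raw counts.

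In log2 ratios per length, XRCC4 exceeded LIG4 by 2.97 ± 0.26 in NT and 3.04 ± 0.33 in OXA, and NHEJ1 stood below XRCC4 at -2.92 ± 0.28 and -3.36 ± 0.40. Both ratios overlapped between the groups. Library 3 had the highest XRCC4 to LIG4 ratio and the lowest NHEJ1 to XRCC4 ratio of its group, in NT and in OXA alike.

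TP53BP1 (ENSG00000067369, chromosome 15 of GRCh38 from 43403061 to 43510728, minus strand), which steers breaks towards end joining, had 4774, 4077 and 4226 normalized counts in NT against 4447, 3988 and 4256 in OXA. The groups overlapped, with the lowest OXA library just under the lowest NT library. OXA stood at -0.043 against NT in log2 terms (SE 0.094, 95% interval -0.26 to 0.18, edgeR adjusted p = 0.838). It was 0.027 without NT library 1 and -0.12 without NT library 2. TUBGCP4, on the opposite strand, shares 28.8% of the exon bases of TP53BP1, and although the library kit keeps the strand, the strand setting of the counting is not given in the sources used here, so the division of reads between them is uncertain.

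PARP1 (ENSG00000143799, chromosome 1 of GRCh38 from 226360210 to 226408154, minus strand), the main producer of ADP-ribose chains at breaks, had the smallest log2 fold change of the 9. Its normalized counts were 23508, 23053 and 21409 in NT and 23620, 22034 and 21371 in OXA, so both groups spanned almost the same range. The log2 fold change was -0.020 (SE 0.086, edgeR adjusted p = 0.921), and its 95% interval, -0.22 to 0.18, corresponds to a fold change between 0.859 and 1.13.

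PARP2 (ENSG00000129484, chromosome 14 of GRCh38 from 20343615 to 20357904, plus strand), which shares the break sensing role of PARP1, had 2474, 1967 and 1593 normalized counts in NT against 1750, 1679 and 1550 in OXA. The NT libraries were widely spread, the OXA libraries were close together at the lower end, and the groups overlapped. The log2 fold change was -0.28 (SE 0.16, 95% interval -0.65 to 0.092, edgeR adjusted p = 0.367). It was -0.10 without NT library 1 and -0.45 without NT library 3. The pair differences were -0.50, -0.23 and -0.040 on the log2 scale, and the block left PARP2 without a call (edgeR adjusted p = 0.106). With those trends on GC and length taken out beside the block, the edgeR adjusted p was 0.0137 at -0.28. That fit called 44.2% of all genes tested.

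The log2 ratio of PARP1 to PARP2, per length, was 1.07, 1.37 and 1.57 in NT and 1.58, 1.53 and 1.61 in OXA. OXA libraries agreed within 0.036 (SD), whereas NT had an SD of 0.25, and OXA library 2 fell inside the NT range. The normalized values of the authors gave means of 1.32 and 1.57, with the groups apart.

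**Figure D2:**
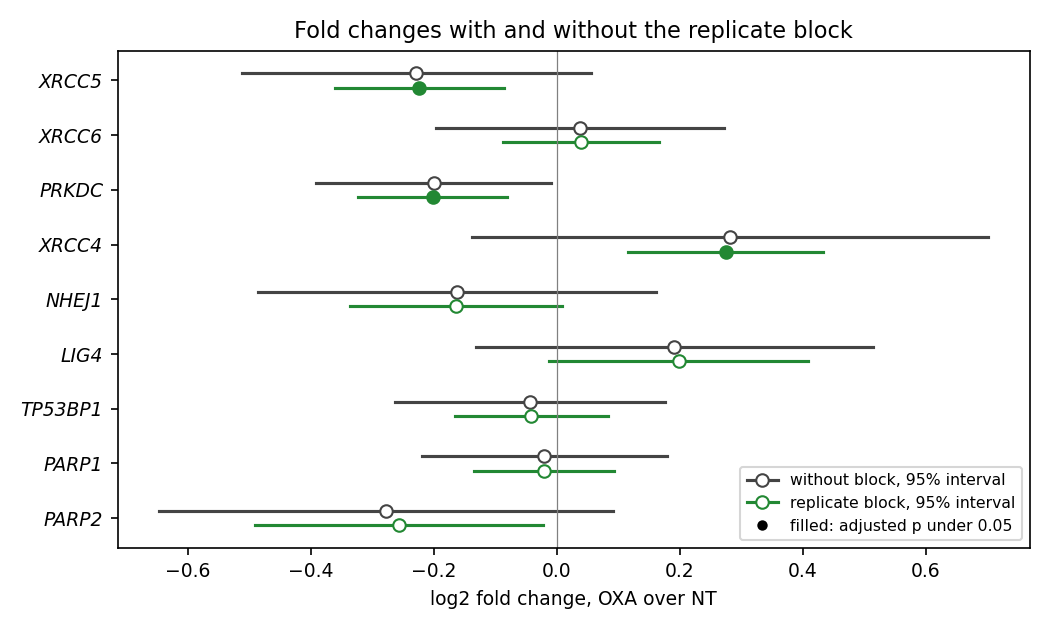
Log2 fold changes of OXA over NT with 95% intervals for the 9 genes, from the edgeR fit without (grey) and with (green) the replicate block. Filled points had an adjusted p under 0.05. The estimates hardly moved with the block while the intervals narrowed, and XRCC5, PRKDC and XRCC4 passed the threshold with it.

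Levels per length, as CPM divided by the kilobases of annotated exon, placed the 9 genes in an order that spanned a 177-fold range in NT. XRCC6 came first with 379 ± 35.1 in NT, ahead of XRCC5 with 205 ± 28.0, and the ranges of the libraries did not touch. PARP1 (34.2 ± 1.67) and PRKDC (32.9 ± 0.487) followed and overlapped in NT. Next came XRCC4 (16.7 ± 2.74) and PARP2 (13.8 ± 3.02), which overlapped as well, and then TP53BP1 (9.34 ± 0.786). NHEJ1 (2.20 ± 0.254) and LIG4 (2.14 ± 0.319) were lowest and could not be placed in order. In OXA, the first 7 kept their ranks, LIG4 (2.44 ± 0.163) had the higher mean of the last pair, and PARP1 (33.7 ± 1.75) lay above PRKDC (28.7 ± 1.55) in every library. Levels depend on the length used. With the longest transcript in place of all exons, PARP1 was 1.43-fold above PRKDC in NT, and PARP2 passed XRCC4.

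**Figure D3:**
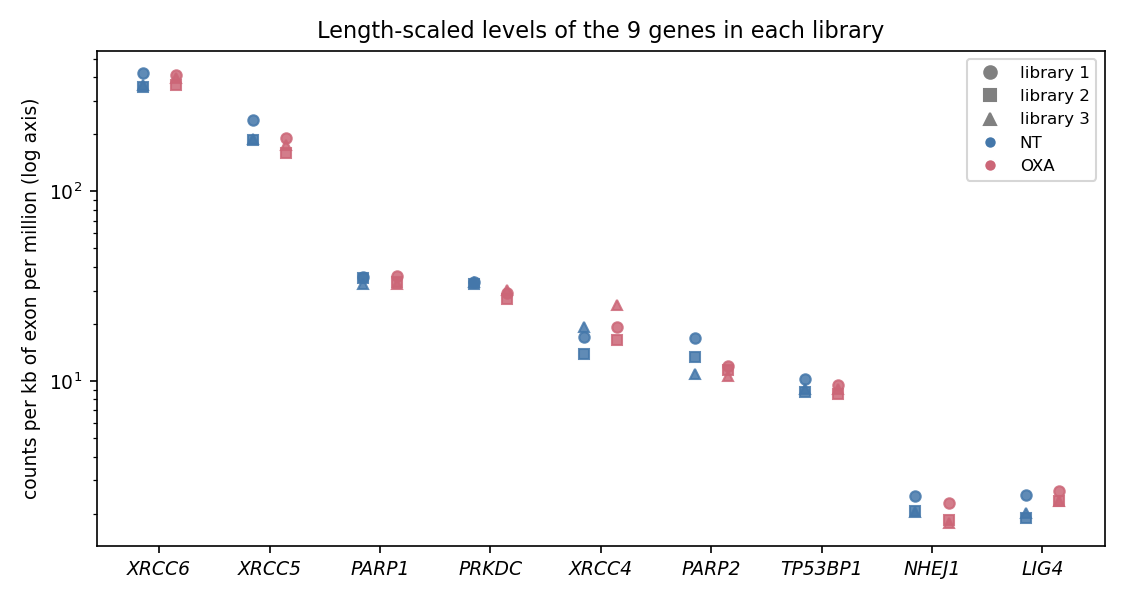
Length-scaled levels of the 9 genes in each library, in CPM per kilobase of exon on a log axis, ordered by the mean of the NT libraries. The Ku genes XRCC6 and XRCC5 lie above all others, and NHEJ1 and LIG4 lie at the lower end in both groups.

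Several of the 9 genes start next to a gene on the opposite strand. A protein-coding neighbour whose annotated start lay within 1 kb was found for PRKDC (MCM4, 7 bases away), LIG4 (ABHD13, 24 bases), XRCC6 (DESI1, 120 bases), TP53BP1 (MAP1A, 230 bases) and XRCC4 (TMEM167A, 365 bases). The annotated start of TMEM167A lies inside XRCC4, so the spans of this pair overlap. Near PARP2 only noncoding genes without a row in the table were found. The promoter tables of RefSeq (GRCh38.p14) matched 7 of the 9 genes, the others being PRKDC and XRCC5. For LIG4 and XRCC4 the window of 250 bases before to 50 bases after the start also holds the start of the neighbour. It is shown here 5′ to 3′ on the strand of the member, with capitals for the stretch between the RefSeq starts, 43 bases for LIG4 (chr13:108218300-108218599, minus strand) and 153 bases for XRCC4 (chr5:83077297-83077596, plus strand). The RefSeq starts thus place TMEM167A upstream of XRCC4, unlike the annotated starts above. The LIG4 window had 35 CpG dinucleotides and 72.3% GC, and the XRCC4 window 24 and 60.7%.
LIG4: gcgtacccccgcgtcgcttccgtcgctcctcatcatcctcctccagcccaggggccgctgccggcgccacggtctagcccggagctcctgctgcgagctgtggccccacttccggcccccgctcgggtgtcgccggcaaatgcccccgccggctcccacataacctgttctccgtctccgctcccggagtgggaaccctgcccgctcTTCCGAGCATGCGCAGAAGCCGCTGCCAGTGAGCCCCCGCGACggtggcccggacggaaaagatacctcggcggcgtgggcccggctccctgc
XRCC4: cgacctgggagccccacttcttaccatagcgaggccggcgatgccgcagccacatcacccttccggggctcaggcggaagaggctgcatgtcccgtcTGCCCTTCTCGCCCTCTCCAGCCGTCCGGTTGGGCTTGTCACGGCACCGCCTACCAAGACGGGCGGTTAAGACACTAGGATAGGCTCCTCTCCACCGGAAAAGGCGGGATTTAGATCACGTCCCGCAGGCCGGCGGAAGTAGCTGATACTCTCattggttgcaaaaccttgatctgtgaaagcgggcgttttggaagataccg

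The most uneven pair was MCM4 and PRKDC. MCM4, a subunit of the replicative helicase, had 18424, 17978 and 18250 normalized counts in NT against 10287, 9702 and 10903 in OXA, and fell by 0.82 on the log2 scale (SE 0.082, 95% interval -1.01 to -0.63, edgeR adjusted p = 0.00365). The interval lay wholly below that of PRKDC. The log2 ratio of MCM4 to PRKDC in normalized counts was -0.92 ± 0.0039 in NT and -1.54 ± 0.014 in OXA, so it was nearly the same in all libraries of a group and differed by -0.62 between the groups. Ratios to the neighbours were taken after the values of both genes had been seen, and they were not tested. How often the ratios of other gene pairs are without overlap between the groups was not determined.

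MAP1A, which encodes a microtubule-associated protein, also fell, from a mean of 788 ± 31.8 to one of 520.2 ± 11.2 normalized counts (-0.60 on the log2 scale, SE 0.10, edgeR adjusted p = 0.0210), beside a TP53BP1 at -0.043. The MAP1A to TP53BP1 log2 ratio differed by -0.56 between the groups, without overlap. For TMEM167A, next to XRCC4, the means were 5146 ± 709.8 and 7625 ± 1193 normalized counts (0.57 on the log2 scale, SE 0.15, edgeR adjusted p = 0.0703, and 0.00351 with the replicate block). The log2 ratio of TMEM167A to XRCC4 was 1.68 ± 0.051 in NT and 1.97 ± 0.081 in OXA, again without overlap. For DESI1, next to XRCC6, the log2 fold change was 0.27 (edgeR adjusted p = 0.102, and 0.0230 with the block). The DESI1 to XRCC6 log2 ratio was -4.48 ± 0.13 in NT and -4.26 ± 0.10 in OXA, also without overlap. For ABHD13, next to LIG4, the log2 fold change was 0.26 (edgeR adjusted p = 0.363). The ABHD13 to LIG4 ratio overlapped between the groups, at 0.26 ± 0.13 and 0.33 ± 0.11 on the log2 scale.

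**Figure D4:**
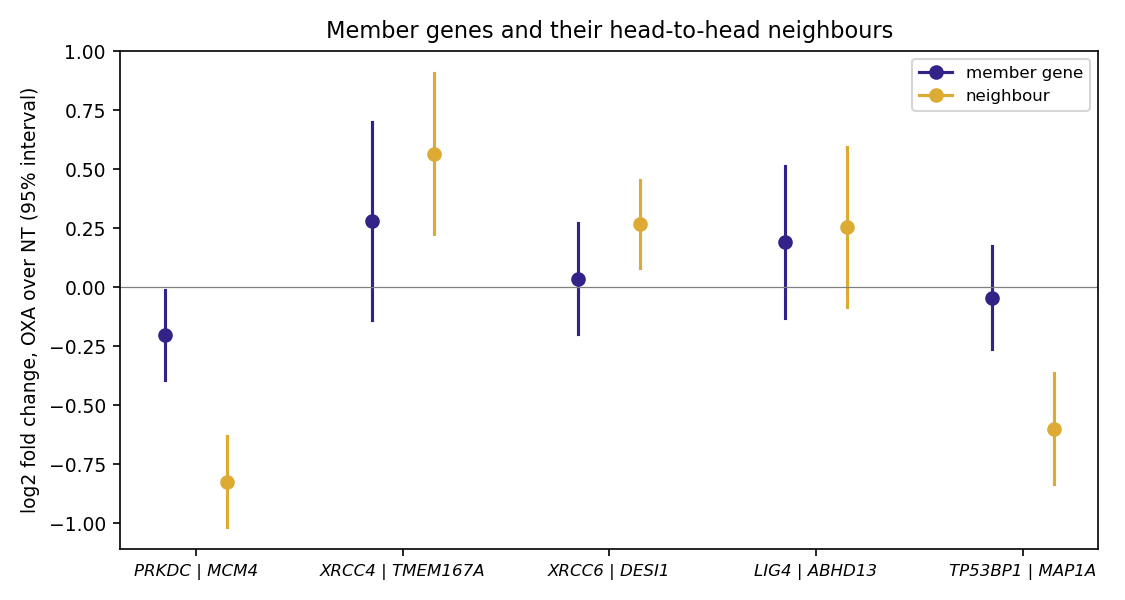
Log2 fold changes of OXA over NT with 95% intervals for 5 of the genes and the protein-coding neighbour that starts within 1 kb on the opposite strand. MCM4 lies at -0.82 beside PRKDC at -0.20 and MAP1A at -0.60 beside TP53BP1 at -0.043, whereas ABHD13 and LIG4 lie close together.

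The 7 RefSeq promoters were searched on both strands for motifs of E2F, p53 and common promoter factors. An E2F octamer (TTTGGCGC, TTTCCCGC or TTTCGCGC) was found in 1 of the 7, XRCC6, and in 2.79% of 27305 promoters. CCAAT was found in 3 of the 7 (35.7% of all promoters) and the GC box GGGCGG in 6 of the 7 (44.6%). The CHR element TTTGAA (15.4% of all promoters), the palindromic NRF1 motif (1.36%) and a full p53 site with exact half-sites (0.0293%) had 0 matches in these windows. The XRCC6 window (chr22:41621045-41621344, plus strand) is shown with its E2F octamer in capitals, as the reverse complement. The octamer forms the 3′ end of the window, after the RefSeq start. Whether E2F acts on this gene was not tested.
XRCC6: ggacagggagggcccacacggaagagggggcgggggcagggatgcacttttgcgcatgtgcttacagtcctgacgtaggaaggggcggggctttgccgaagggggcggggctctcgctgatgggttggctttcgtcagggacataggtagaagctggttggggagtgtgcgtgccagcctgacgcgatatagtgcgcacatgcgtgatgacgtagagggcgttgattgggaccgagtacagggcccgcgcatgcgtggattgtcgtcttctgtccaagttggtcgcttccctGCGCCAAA

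Of 50 other genes of these pathways in 4 lists, 48 passed the filter on low counts, the others being DNTT and PARP15. In OXA, 0 of the 48 were higher and 4 (8.33%) were lower at an edgeR adjusted p under 0.05, where 2.78% and 2.29% of all genes tested were. The 4 were POLQ, MDC1, MACROD1 and OARD1. At an unadjusted p under 0.05, 1 was higher and 10 were lower, beside 10.7% and 11.1% of all genes. With the replicate block, 3 were higher (APTX, DYNLL1 and PARP4) and 9 lower, beside 12.1% and 10.9% of all genes. The block called 0 higher without the pair numbered 2 and 0 higher without the pair numbered 3. The calls of APTX, DYNLL1 and PARP4 were thus lost in both. Over all genes those fits called 956 and 1886 higher. The 4 calls depended on the libraries kept, as did the calls over all genes. All 4 held without NT library 1, and MDC1 alone held without NT library 3. Of the 4, 0 held without NT library 2, OXA library 1, OXA library 2 or OXA library 3. The share of all genes called was 8.60% without NT library 1, 2.16% without NT library 2 and 1.33% without NT library 3. Without OXA library 1, 2 or 3 it was 0.611%, 0.908% and 1.22%, against 5.07% with all libraries. DESeq2 called 7 lower, beside 635 lower among all 13727 genes tested. The fit with the scaling factors of the authors called MACROD1 alone, beside 200 lower among all genes tested.

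Alternative end joining, which pairs short homologies after resection, had 1 of 7 genes lower and a median log2 fold change of -0.21, with all 7 values below 0. POLQ, the polymerase theta that defines this route, had 1425, 1222 and 1123 normalized counts in NT against 857, 867 and 842 in OXA. All OXA libraries lay below all NT libraries, by -0.55 on the log2 scale (SE 0.12, edgeR adjusted p = 0.0391). RBBP8 (CtIP), which starts resection, had -0.43 (edgeR adjusted p = 0.0999, and 0.0122 with the block). MRE11, its nuclease partner, had -0.39 without a call in either fit (edgeR adjusted p = 0.118 and 0.0541). The ligase LIG3 (-0.028) and its scaffold XRCC1 (-0.21) did not pass in either fit.

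Among 11 factors that bring 53BP1 to chromatin or act after it, 1 was lower, and the median log2 fold change was -0.14. MDC1, the adaptor that binds phosphorylated histone H2AX, had 8385, 8704 and 6986 normalized counts in NT against 5847, 5868 and 5208 in OXA. The OXA libraries were all below the NT libraries (-0.51 on the log2 scale, SE 0.11, edgeR adjusted p = 0.0428). PAXIP1, which binds phosphorylated 53BP1, stood at -0.52 on the log2 scale (edgeR adjusted p = 0.0652, and 0.00568 with the block). The ubiquitin ligase RNF168 had -0.36 (0.0839 and 0.0212), and RIF1, which blocks resection with 53BP1, had -0.26 (0.227 and 0.0403). DYNLL1, a dynein light chain that binds 53BP1, was higher with the block only (log2 fold change 0.20, edgeR adjusted p = 0.170, and 0.0315 with the block). The shieldin partner MAD2L2 stood at -0.15 (edgeR adjusted p = 0.737).

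The accessory factors of end joining had 0 of 8 tested genes called without the block and a median log2 fold change of -0.027. APTX, which removes AMP from aborted ligations, was called higher with the block only (log2 fold change 0.24, edgeR adjusted p = 0.346, and 0.0301 with the block). The nuclease DCLRE1C (Artemis) had -0.22 and the Ku-binding factor PAXX 0.15, neither of them past the threshold in either fit.

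Among 22 tested genes of the PARP family and ADP-ribose turnover, 2 were lower and the median was -0.041. Both encode hydrolases that remove ADP-ribose from proteins. MACROD1 had 273, 376 and 332 normalized counts in NT against 171, 195 and 205 in OXA, which put all OXA libraries below NT (-0.78 on the log2 scale, SE 0.17, edgeR adjusted p = 0.0430). It was the only one of the 4 past a 1.5-fold change. OARD1 had 937, 805 and 827 in NT and 629, 579 and 611 in OXA (-0.50 on the log2 scale, SE 0.11, edgeR adjusted p = 0.0460). PARP16, a PARP of the endoplasmic reticulum, and PARP4, the PARP of vault particles, were called with the block only, at log2 fold changes of -0.46 and 0.20 (block adjusted p = 0.0338 and 0.0303). PARG, which cuts the chains, had 0.028, HPF1, the cofactor that directs PARP1 and PARP2 to serines, -0.22, PARP3 0.25, TNKS -0.14 and CHD1L, a remodeler activated by the chains, -0.045, none of them past the threshold in either fit.

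**Figure D5:**
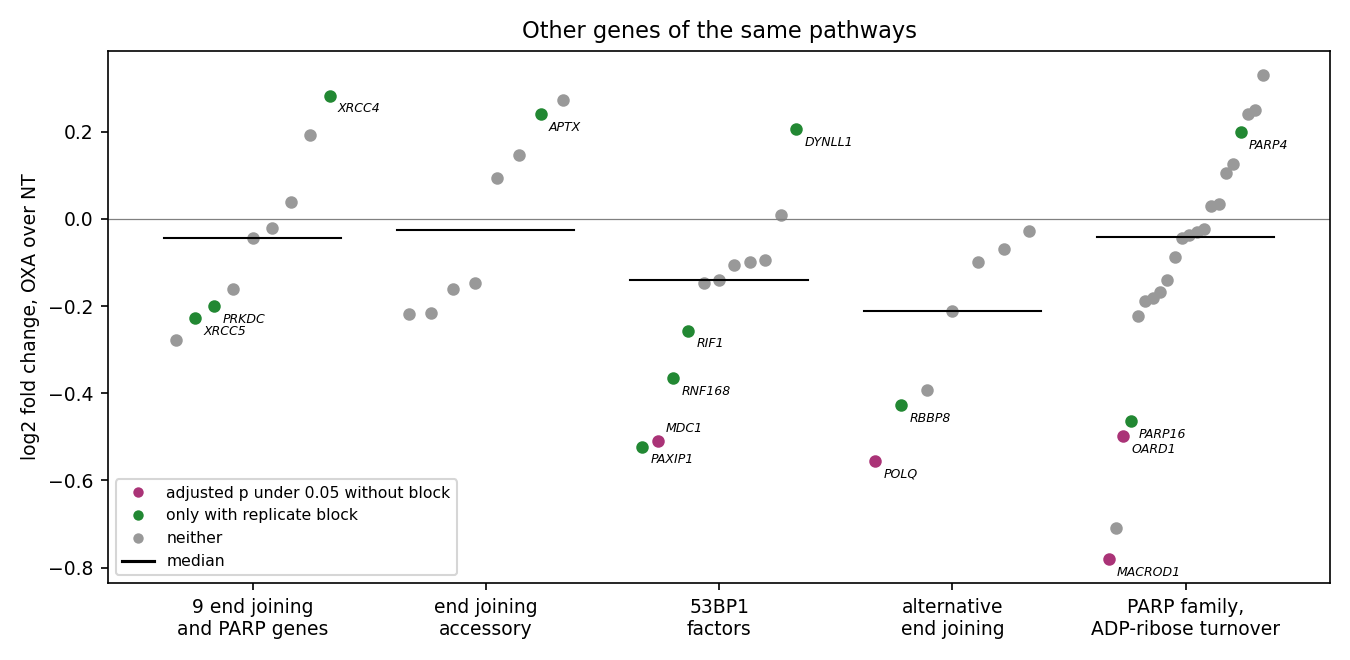
Log2 fold changes of OXA over NT for the 9 genes and for the tested genes of 4 related lists, each point a gene and each bar the median. Colors mark calls without the replicate block and calls made only with it. POLQ, MDC1, OARD1 and MACROD1 passed without the block, and labels name each gene called with it.

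Of 8 cell cycle markers, MKI67, MCM6 and CCNE2 fell at log2 fold changes of -0.60, -1.01 and -1.17 (edgeR adjusted p of at most 0.0258), and all 8 values were below 0, with a median of -0.46. TOP2A stood at -0.25, MCM2 at -0.56, CCNA2 at -0.37, CCNB1 at -0.15 and PCNA at -0.045 without passing in this fit. In the fit without the block, 6414 of all 13727 genes tested had log2 fold changes below 0. The replicate block called 6 of the 8 lower (75.0%), beside 10.9% of all genes. The part of cell cycle distribution in the lower values of PRKDC, XRCC5 and the called pathway genes was not tested.

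Over the 6 libraries, the gene outside the list with the highest Pearson r of log2 normalized counts was NBPF3 for PRKDC (r = 0.996), SMARCA5 for XRCC5 (0.999) and ANXA7 for XRCC4 (0.995). With 6 points that share libraries and 13727 genes to choose from, high values were common, and 355, 346 and 74 genes exceeded 0.95. Among the 9 genes themselves, r was highest for XRCC5 and NHEJ1 (0.895) and lowest for XRCC4 and PARP2 (-0.55).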

How the data were processed

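RNA of HCT116 cells was sequenced as reads of 100 nt per end after polyA selection with a stranded kit, at 32979521 to 40967880 counts per library. Per the labels and the paper, reads were mapped to GRCh38 with STAR 2.7.5b, and the submitters' processing notes also name Trimmomatic 0.32, RSEM 1.3.3 and DESeq2. Which tool made the counts, the annotation and the strand setting are not given in the sources used here. The authors deposited raw counts, used as deposited, and a normalized signal, which equals the raw count times a factor that differs between genes and libraries and served for alternatives.

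All genes passing filterByExpr (minimum count 10) were fitted with TMM factors and edgeR's quasi-likelihood test in R 4.3.3 with edgeR 4.0.16. DESeq2 1.42.0 and limma 3.58.1 served for alternatives. P-values were adjusted over 13727 genes by the Benjamini-Hochberg method, with a threshold of 0.05. Standard errors are the estimate over the square root of F. Positions, lengths and GC content came from GENCODE on GRCh38. Same-numbered libraries correlated in their deviations from group means (r = 0.48, 0.47 and 0.26 for numbers 1, 2 and 3, between -0.41 and 0.078 for unlike numbers). The numbers come from the sample labels. The steps were tested on simulated counts.

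The genes and lists were chosen with earlier results of these data known. Named are the 9 genes, listed genes called in either fit, fixed representatives, head-to-head neighbours, genes most alike, and markers. The values of a single fixed representative are not reported here. Alternatives were other factors, filters and tools, the replicate block, the authors' factors and each library left out. The block without each pair was chosen after seeing the data.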

Additional observations from a re-analysis of the deposited data

How the results depend on the processing

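Over 16 alternatives, the log2 fold changes of the 9 genes kept their direction and side of the threshold in 128 comparisons, gained a call in 8 and turned their sign in 8. XRCC6 turned to -0.0029 with upper-quartile factors and to -0.0021 with library totals only, and lay between -0.044 and 0.12 when each library was left out, below 0 without NT library 2 or 3 or OXA library 1 or 3. Without NT library 1, PARP1 turned to 0.0075 and TP53BP1 to 0.027, the ranges over the libraries left out being -0.092 to 0.0075 and -0.12 to 0.027. The 9 genes had 0 calls under each alternative without a block. The replicate block gave 1 higher and 2 lower, 2 higher and 3 lower with GC and length trends removed, 2 higher and 2 lower without the pair numbered 1, 0 higher and 0 lower without the pair numbered 2, and 0 higher and 1 lower without the pair numbered 3, where XRCC6 stood at -0.0091. Pathway genes called lower numbered 4, with 7 by DESeq2, 1 with the authors' factors, 9 with the replicate block, 16 with trends removed beside it, and 0 to 4 when each library was left out. The block gave 15 without the pair numbered 1, 6 without that numbered 2 and 9 without that numbered 3. Those called higher numbered 3 with the block, 6 with trends removed, 5 without the pair numbered 1, and 0 without the pair numbered 2 or 3. Over all genes, edgeR without the block called 381 higher and 315 lower, the block 1664 and 1493, the block with trends removed 3110 and 2961, DESeq2 633 and 635, and the authors' factors 241 and 200. With upper-quartile factors these counts were 348 and 493, and with library totals only 350 and 511. Without 1 library they ran from 66 to 623 and from 19 to 571. The block called 41.5% of all genes without the pair numbered 1, 11.8% without that numbered 2 and 22.3% without that numbered 3. The cause of these shifts was not tested. With 3 libraries per group, the 95% intervals of the 9 genes without the block span from 0.639-fold to 1.63-fold. The lowest raw count of the 9 genes was 469 (LIG4 in NT library 2). The part of counting error in their spread was not tested.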

Other observations

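Of the 9 genes in the 6 libraries, PRKDC in NT library 1 had the scaling factor of the authors that lay farthest from the median of its library. Relative to the median factor of each library, the authors scaled PRKDC by 0.833, 0.905 and 0.922 in NT libraries 1 to 3 and by 0.877, 0.961 and 0.977 in OXA libraries 1 to 3. In their normalized values, PRKDC had 29697, 30482 and 31966 in NT and 26192, 27065 and 30667 in OXA, so that OXA library 3 lay within the NT range. With these factors in the edgeR fit, the log2 fold change of PRKDC was -0.13 (standard error 0.10, edgeR adjusted p = 0.538).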
